A study of Homo sapiens with 6 samples.

Results

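The Hippo pathway core and the TEAD factors were examined as 10 genes, picked by symbol: the coactivators YAP1 and WWTR1 (which encodes TAZ), the DNA-binding partners TEAD1, TEAD2, TEAD3 and TEAD4, the TEAD cofactor VGLL4, the kinases LATS1 and LATS2, and the scaffold NF2. All 10 symbols were found among the 28008 genes of the count table and in the TPM table, which scales transcript abundance by gene length and library. The cells were NCI-H660 (H660), an established line from a neuroendocrine prostate cancer, carrying a doxycycline (DOX)-inducible vector for an shRNA against MUC1, which encodes a transmembrane mucin. RNA-Seq compared 3 DOX-negative libraries, from cells given the 0.1% DMSO vehicle, with 3 DOX-positive libraries, from cells given 500 ng/ml DOX. All 6 libraries therefore carry the same vector and puromycin selection, and the group is written in the sample titles alone. The comparison asked whether the pathway is transcribed in these cells and whether its transcripts differ when the shRNA is induced. No library with DOX and a control shRNA is among the 6, so that effects of DOX and of MUC1 silencing cannot be told apart. The labels describe triplicate cultures, and p-values measure the spread between those cultures of 1 transduced line.

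In the Hippo pathway, a kinase cascade ends in LATS1 and LATS2, which phosphorylate the coactivators YAP1 and TAZ and keep them out of the nucleus, while NF2 (merlin) acts at the membrane to recruit LATS kinases. Coactivators that escape this control enter the nucleus and bind TEAD proteins, which hold the DNA contact. VGLL4 competes with them for TEAD binding. Loss of YAP1 expression is known in small cell and neuroendocrine cancers. Control of the pathway is largely by phosphorylation, which transcript levels do not measure.

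The libraries held 47620696 to 74061121 counts, and any 2 libraries of a group differed by at least 14.8 times the sampling noise (chi-square per degree of freedom), so none was a copy of another. MUC1, the targeted gene, fell by 1.32 on the log2 scale (SE 0.096, edgeR adjusted p = 0.00017), from 79.6 to 90.2 CPM (counts scaled to the normalized library size) in DOX-negative to 29.9 to 37.2 CPM in DOX-positive libraries. The 6 neuroendocrine markers CHGA, CHGB, SYP, ENO2, INSM1 and NCAM1 were at 1 TPM or more in every library, with summed levels of 99.7 to 142 TPM in DOX-negative and 95.8 to 148 TPM in DOX-positive libraries. Of 3 luminal prostate markers, KLK2, KLK3 and TMPRSS2, none reached 1 TPM in every library, and KLK3 had no count. Small noncoding RNAs led by RN7SK took most of the TPM scale, since the 10 highest genes of each library held 74.9% to 82.8% of it. Protein-coding genes held 16.1% to 23.9%, a share that varied between libraries of 1 group. TPM was therefore used to order genes by level, and the test of change was run on counts.

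Most of the pathway was transcribed. TEAD1, VGLL4, LATS1, NF2, TEAD3 and YAP1 were at 1 TPM or more in all 6 libraries. WWTR1 and TEAD4 lay close to 1 TPM in DOX-negative and above it in DOX-positive libraries, LATS2 did not exceed 0.5 TPM, and TEAD2 was close to absent. For scale, the widely expressed genes POLR2A (an RNA polymerase II subunit), HPRT1 (a purine salvage enzyme) and TBP (the TATA-binding protein) averaged 48.7, 19.2 and 7.91 TPM, so that TEAD1 approached HPRT1 and LATS1 approached TBP.

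**Figure D1:**
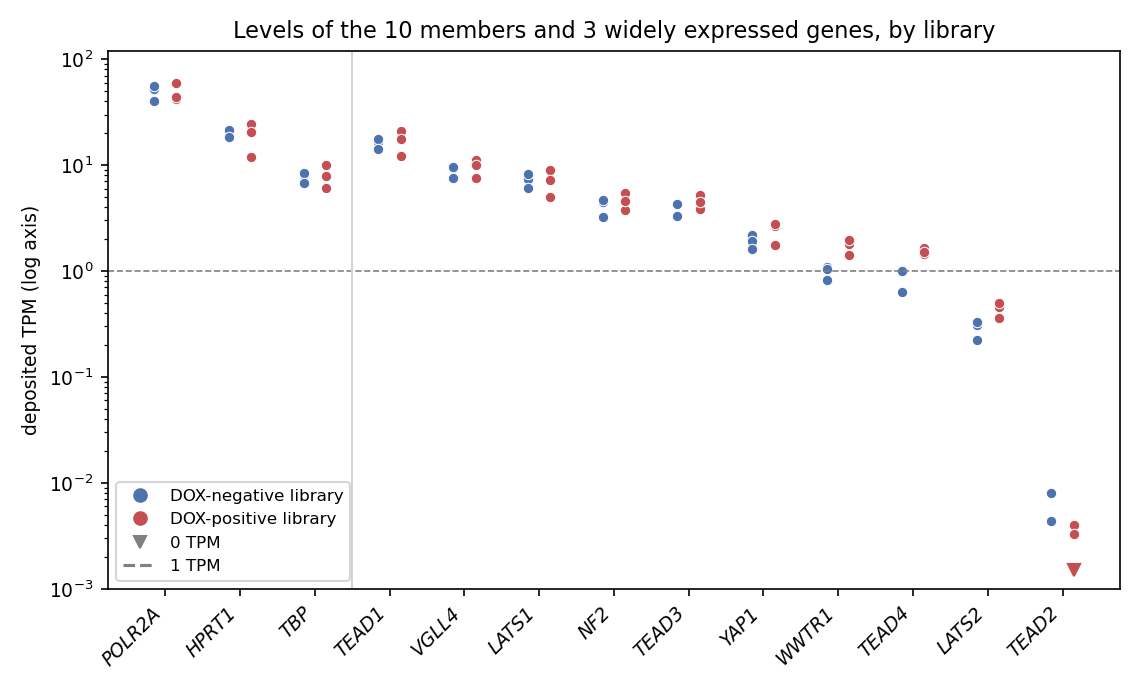
Deposited TPM (log axis) of POLR2A, HPRT1 and TBP, left of the grey line, and of the 10 members in order of mean level; each point is 1 library, blue DOX-negative and red DOX-positive, and the dashed line is 1 TPM. The triangle marks the DOX-positive library in which TEAD2 was listed at 0 TPM and has no true place on a log axis. TEAD1 sat between 12.2 and 20.8 TPM, whereas TEAD2 did not exceed 0.00796 TPM.

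The order of mean TPM over the 6 libraries was TEAD1 16.5, VGLL4 9.17, LATS1 7.15, NF2 4.37, TEAD3 4.24, YAP1 2.16, WWTR1 1.36, TEAD4 1.21, LATS2 0.364 and TEAD2 0.004. Neighbours whose ranges overlapped among the DOX-negative libraries were VGLL4 and LATS1, NF2 and TEAD3, and WWTR1 and TEAD4. Among the DOX-positive libraries, LATS1 and NF2 overlapped as well, and so did YAP1 and WWTR1. Inside each library, however, VGLL4 exceeded LATS1, LATS1 exceeded NF2, and YAP1 exceeded WWTR1 in 3 of 3 libraries of both groups. NF2 and TEAD3 were not ordered in this way, with NF2 higher in 2 of 3 libraries of each group. Ranked among the 19266 to 19699 genes listed above 0 TPM in a library, TEAD1 stood at percentile 88.0 to 90.1, YAP1 at 47.8 to 55.9, WWTR1 at 38.8 to 49.7 and LATS2 at 26.1 to 33.1. Rescaled so that protein-coding genes alone make up the whole scale, YAP1 was at 8.86 to 14.7, WWTR1 at 4.79 to 10.4 and LATS2 at 1.40 to 2.66 TPM, and 9 of the 10 members were at 1 TPM or more in every library.

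With DOX, 3 of the 9 members tested were higher at an adjusted p under 0.05 in edgeR's quasi-likelihood test and none was lower. Among all 17026 genes tested, 4.87% passed, 2.91% as higher and 1.96% as lower. The members that rose were WWTR1, TEAD4 and LATS2, which hold places 7, 8 and 9 in the order of level. The more abundant relative of each, YAP1, TEAD1 and LATS1, did not pass the test. In 6 members, YAP1, WWTR1, TEAD3, TEAD4, LATS2 and NF2, all 3 DOX-positive libraries lay above all 3 DOX-negative ones, against 14.8% of all genes tested. None of the 9 lay wholly below, against 13.3% of all genes, and 28.1% of all genes lay apart in either direction. The median log2 change was 0.17 over the 9 members and 0.00034 over all genes tested. The members were chosen with earlier results of these data known, so their shares and median are not independent of them. TEAD2 was not tested because it did not pass the minimum count.

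**Figure D2:**
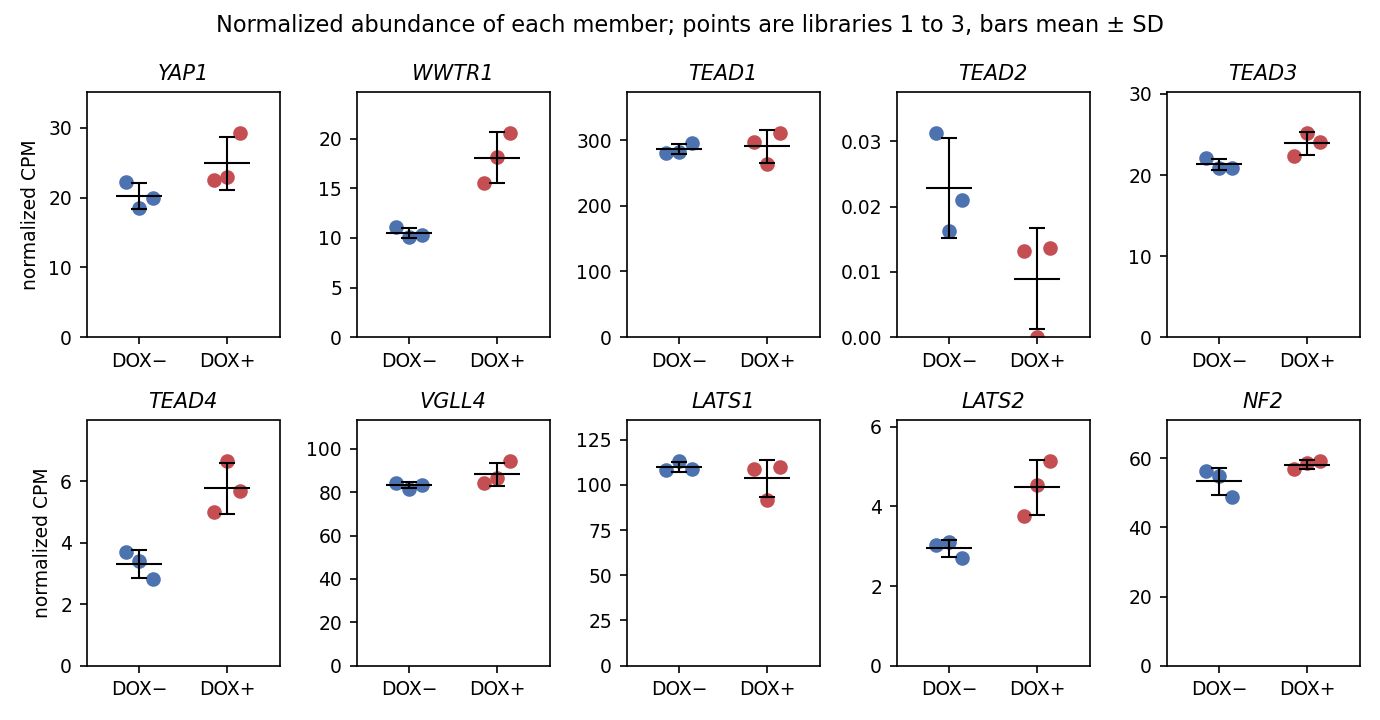
Normalized CPM of each member in the DOX-negative (DOX−, blue) and DOX-positive (DOX+, red) libraries; points are libraries 1 to 3 from left to right, bars the mean ± SD (n = 3), and each panel has its own axis from 0. The points of WWTR1 (10.1 to 11.1 against 15.5 to 20.6), TEAD4 and LATS2 separate by group, while those of TEAD1 and LATS1 overlap.

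WWTR1 (chr3:149517235-149724788, GRCh38.p14) encodes TAZ, the paralog of YAP1. Its DOX-negative libraries were at 11.1, 10.1 and 10.3 CPM and its DOX-positive libraries at 15.5, 18.2 and 20.6 CPM. The lowest DOX-positive library was well above the highest DOX-negative one. The log2 change was 0.79 (SE 0.11, 95% interval 0.54 to 1.03, edgeR adjusted p = 0.0048), or 1.73-fold, on 492 to 1522 counts a library. Without DOX-negative replicate 3 the change was 0.77 with an adjusted p of 0.054. WWTR1-AS1, an antisense gene that overlaps WWTR1, was at 0.517 to 0.567 CPM and 0.635 to 0.836 CPM in the respective groups, with a log2 change of 0.40 and an edgeR adjusted p of 0.34. Whether the counting used strand is not given in the sources used here, so reads in the overlap cannot be assigned to one or the other. WWTR1-AS1 held 27 to 50 counts a library, and its part in the WWTR1 counts was not tested.

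YAP1 (chr11:102110447-102233424) was at 22.3, 18.5 and 20.0 CPM without DOX and at 22.6, 22.9 and 29.3 CPM with DOX. The groups did not overlap, but DOX-positive replicate 1 exceeded DOX-negative replicate 1 by little and DOX-positive replicate 3 stood above the rest. The log2 change of 0.30 (SE 0.11, 95% interval 0.05 to 0.55) had an unadjusted p of 0.024 and an edgeR adjusted p of 0.16, and it was not called. Without DOX-positive replicate 3 the change was 0.16. RefSeq lists 3 pseudogenes of YAP1, with which reads may be shared. Both genes were also set against each other inside each library. The ratio of WWTR1 to YAP1 TPM was 0.517 ± 0.0235 (SD, n = 3) without DOX and 0.726 ± 0.0579 (SD, n = 3) with DOX. None of the individual ratios overlapped between groups, and the difference in log2 ratio was 0.49 (SE 0.075, exact permutation test, two-sided p = 0.10, the smallest that 3 against 3 libraries allow). This ratio was chosen after the values of both genes were seen.

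TEAD1 (chr11:12674421-12944737) supplied most of the TEAD transcripts. It was at 281, 282 and 295 CPM in DOX-negative libraries and at 297, 263 and 311 CPM in DOX-positive libraries, which overlapped. Its log2 change was 0.02 (SE 0.078, edgeR adjusted p = 0.91), and the 95% interval of -0.15 to 0.19 bounds the change on either side. Left without DOX-positive replicate 3, it was -0.031. As a share of the summed TPM of TEAD1 to TEAD4, it held 76.9% ± 1.28 without DOX and 73.2% ± 3.02 with DOX (SD, n = 3 each), without overlap (exact permutation test, two-sided p = 0.10, the smallest possible). The difference of -3.7 percentage points was -2.0 when DOX-positive replicate 2 was left out and -1.4 when counts replaced TPM.

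TEAD4 (chr12:2959397-3040676), the TEAD factor known for its part in forming the trophectoderm, was at 3.71, 3.39 and 2.81 CPM without DOX and at 5.00, 6.64 and 5.67 CPM with DOX. The groups did not overlap. The log2 change was 0.79 (SE 0.14, 95% interval 0.48 to 1.11, edgeR adjusted p = 0.013), or 1.73-fold, on 134 to 418 counts a library. The adjusted p was 0.058 without DOX-negative replicate 2 and 0.085 without DOX-negative replicate 3. Its share of TEAD transcripts was 4.69%, 4.35% and 3.50% without DOX and 5.95%, 8.26% and 6.38% with DOX. The mean share thus differed by 2.7 percentage points (SE 0.79, exact permutation test, two-sided p = 0.10, the smallest possible), and TEAD1 was the main TEAD transcript in every library. Taken from counts, which are not scaled by length, the TEAD4 share differed by 0.75 percentage points. The shares of TEAD1, TEAD3 and TEAD4 were added after the members' values were seen.

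TEAD3 (chr6:35473597-35497079) was at 22.1, 20.9 and 20.9 CPM without DOX and at 22.4, 25.2 and 24.1 CPM with DOX. The lowest DOX-positive value was just above the highest DOX-negative one, and the log2 change of 0.17 (SE 0.084, 95% interval -0.02 to 0.35) did not pass the test (edgeR adjusted p = 0.28). TEAD3 held 18.9% of TEAD transcripts without DOX and 20.0% with DOX, ranges that overlapped, and the difference of 1.1 percentage points was 0.029 when DOX-positive replicate 2 was left out.

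TEAD2 (chr19:49340595-49362416) had 2, 1 and 1 counts in the DOX-negative libraries and 1, 0 and 1 in the DOX-positive libraries, 6 counts in all. These libraries allow no comparison of TEAD2 between groups, since each value lies under the 3 counts that a count of 0 allows, which came to 0.0405 to 0.0630 CPM, counting error only. TEAD2 held 0.0365% or less of TEAD transcripts in every library. The genes CD37 and DKKL1 overlap it in the annotation.

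VGLL4 (chr3:11556067-11721815), the cofactor that competes for TEAD, was at 84.4, 81.6 and 83.4 CPM without DOX and at 84.0, 86.4 and 94.2 CPM with DOX. The groups overlapped, and the log2 change was 0.09 (SE 0.073, 95% interval -0.07 to 0.24, edgeR adjusted p = 0.55). The autophagy gene ATG7 overlaps VGLL4 in the annotation and was at 22.7 to 27.7 CPM and 22.8 to 24.1 CPM in the respective groups. Without DOX-positive replicate 3 the change was 0.036. VGLL4 was the second member by level, and its relatives were lower. VGLL3 averaged 0.204 TPM on 191 to 456 counts a library and had a log2 change of 0.35 that was not called (edgeR adjusted p = 0.22), while VGLL2 had at most 10 counts and VGLL1 none.

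LATS1 (chr6:149658153-149718101) and LATS2 (chr13:20973036-21061586), the kinases that phosphorylate YAP1 and TAZ, differed in both level and change. LATS1 was at 108, 113 and 109 CPM without DOX and at 109, 91.6 and 110 CPM with DOX. The groups overlapped, DOX-positive replicate 2 stood below the others, and the log2 change was -0.09 (SE 0.083, 95% interval -0.27 to 0.09, edgeR adjusted p = 0.61). Without DOX-positive replicate 2 it was -0.0027. LATS2 was at 3.04, 3.10 and 2.71 CPM without DOX and at 3.77, 4.53 and 5.13 CPM with DOX, without overlap. Its log2 change was 0.60 (SE 0.14, 95% interval 0.29 to 0.91, edgeR adjusted p = 0.035), or 1.51-fold, on 129 to 378 counts a library. Of the 3 calls this one was lost most often over the alternatives run, among them on leaving out any 1 library other than DOX-positive replicate 1, with a log2 change of 0.48 to 0.71 over the 6 libraries left out in turn. The lost adjusted p-values were 0.065, 0.11 and 0.17 without DOX-negative replicates 1, 2 and 3, and 0.059 and 0.11 without DOX-positive replicates 2 and 3.

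Per length, LATS2 was a minor LATS transcript in both groups. The ratio of LATS2 to LATS1 TPM was 0.0416, 0.0406 and 0.0368 without DOX and 0.0512, 0.0730 and 0.0688 with DOX. The difference in log2 ratio was 0.68 (SE 0.17, exact permutation test, two-sided p = 0.10, the smallest possible). NF2 (chr22:29603556-29698600), the upstream scaffold, was at 56.2, 54.9 and 48.9 CPM without DOX and at 56.8, 58.6 and 59.1 CPM with DOX. The groups were barely apart, and the log2 change of 0.12 (SE 0.078, 95% interval -0.05 to 0.29) did not pass the test (edgeR adjusted p = 0.39). Without DOX-negative replicate 3 it was 0.061.

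**Figure D3:**
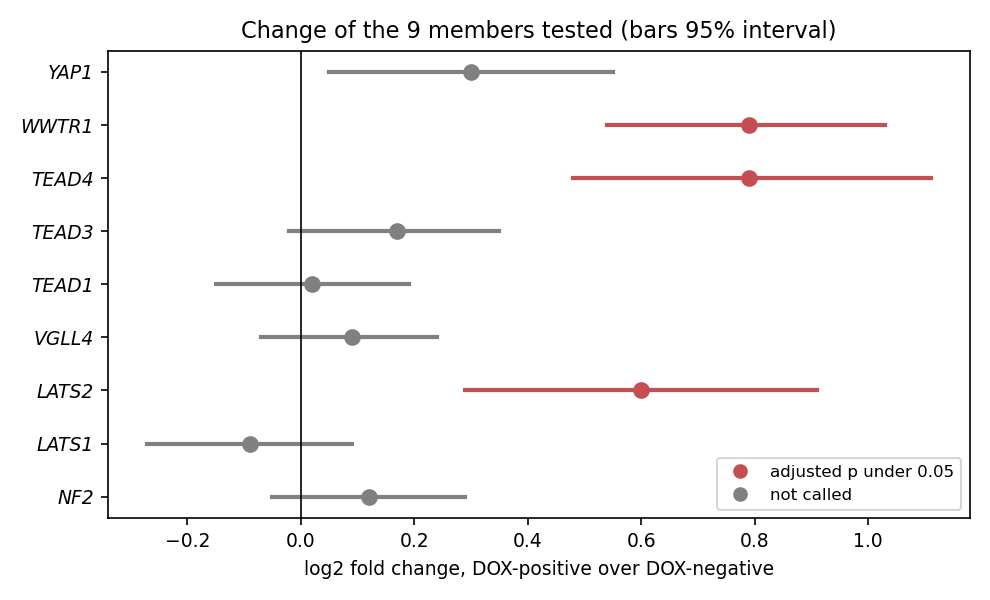
Log2 fold change, DOX-positive over DOX-negative, of the 9 members tested; points are edgeR estimates and bars 95% intervals, red where the adjusted p was under 0.05. WWTR1 and TEAD4 lie at 0.79 and LATS2 at 0.60, and the interval of TEAD1 runs from -0.15 to 0.19.

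The summed transcript level of the coactivators was below that of their DNA-binding partners in every library. The summed TPM of YAP1 and WWTR1 over that of the 4 TEAD genes was 0.151, 0.130 and 0.134 without DOX and 0.161, 0.182 and 0.200 with DOX. The groups did not overlap, with a difference in log2 ratio of 0.39 (SE 0.11, exact permutation test, two-sided p = 0.10, the smallest possible). These ratios are taken inside a library, so that the noncoding RNA share of the TPM scale cancels.

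**Figure D4:**
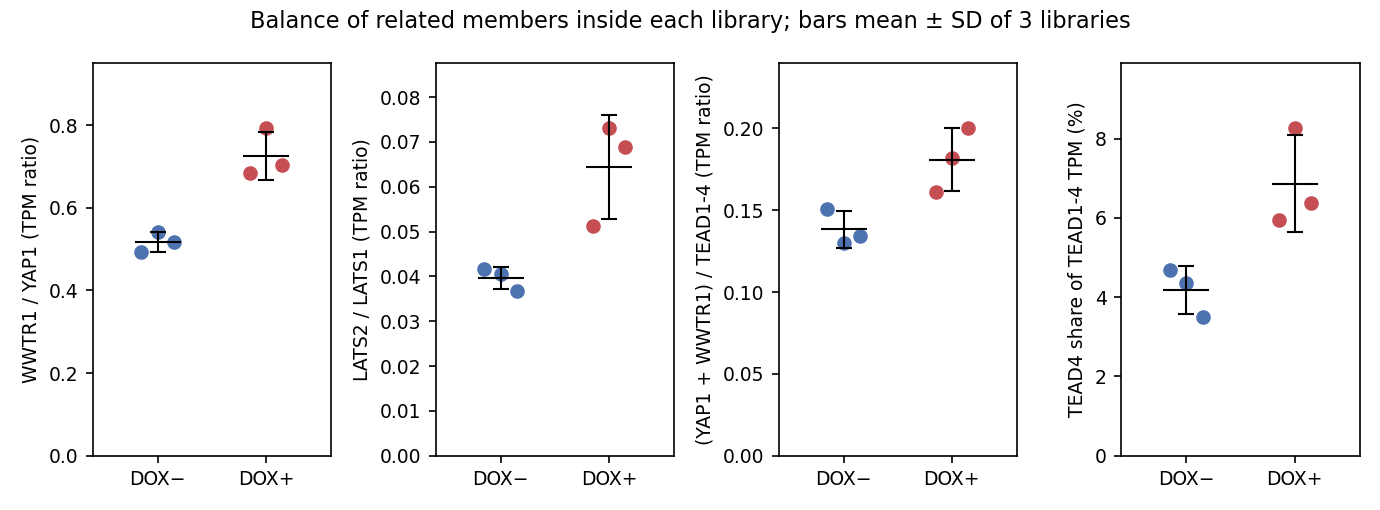
Ratios of related members inside each library: WWTR1 to YAP1, LATS2 to LATS1, YAP1 plus WWTR1 to the sum of TEAD1 to TEAD4 (TPM ratios), and the TEAD4 share of TEAD1 to TEAD4 TPM in percent; points are libraries, bars mean ± SD (n = 3), and axes start at 0. In all 4 panels the DOX-positive points lie above the DOX-negative points, the LATS2 to LATS1 ratio at 0.0512 to 0.0730 against 0.0368 to 0.0416.

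The members were also compared by the course of their log2 CPM over the 6 libraries, as the root mean square distance after centring. LATS2 (0.118) and TEAD4 (0.156) were the members nearest to WWTR1, and LATS1 (0.462) the farthest. YAP1 lay 0.142 from VGLL4 and 0.147 from TEAD3, and 0.255 from WWTR1. Among the 10249 genes averaging at least 10 CPM, the nearest to WWTR1 were DHRS3 (0.0525), a retinal reductase, OAS3 (0.0557), an interferon-induced oligoadenylate synthetase, and FOXC1 (0.0684), a forkhead factor, where the median gene lay 0.418 away. Nearest to YAP1 were SYTL2 (0.0413), LGI2 (0.0434) and RAB31 (0.0517), with a median of 0.223. With 6 libraries in 2 groups, this measure mostly sorts genes by the size of their change.

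Promoter sequence of the members that rose and of the near-silent TEAD2 is shown to set the letters beside these levels. RefSeq promoter entries (GRCh38.p14) were found for 8 of the 10 members, 16 entries in all, and not for TEAD1 and TEAD4. Each stretch lies within 250 bases before an annotated start on the minus strand and leaves out any base in a GENCODE exon of the same gene. Capitals mark CG dinucleotides, of which the median promoter entry of all 35116 held 11 in 250 bases (quartiles 3 and 23). The stretches are WWTR1 at chr3:149658102-149658275, LATS2 at chr13:21061587-21061836 and TEAD2 at chr19:49362458-49362666.
WWTR1: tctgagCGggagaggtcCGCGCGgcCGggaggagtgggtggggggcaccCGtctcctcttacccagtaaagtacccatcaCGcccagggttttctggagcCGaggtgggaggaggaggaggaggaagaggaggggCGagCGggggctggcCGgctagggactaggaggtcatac
LATS2: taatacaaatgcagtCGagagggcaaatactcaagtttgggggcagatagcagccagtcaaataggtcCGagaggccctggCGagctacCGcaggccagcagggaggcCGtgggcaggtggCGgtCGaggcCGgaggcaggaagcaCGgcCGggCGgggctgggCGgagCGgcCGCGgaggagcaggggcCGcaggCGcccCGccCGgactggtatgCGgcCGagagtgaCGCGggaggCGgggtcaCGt
TEAD2: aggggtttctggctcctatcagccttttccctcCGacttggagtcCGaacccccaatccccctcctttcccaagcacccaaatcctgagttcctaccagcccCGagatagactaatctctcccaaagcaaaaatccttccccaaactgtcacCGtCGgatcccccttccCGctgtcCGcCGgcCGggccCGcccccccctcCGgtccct

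The LATS2 stretch held 25 CG dinucleotides in 250 bases, the WWTR1 stretch 11 in 174 and the TEAD2 stretch 11 in 209. Over its full 250 bases the TEAD2 entry shown held 12, and another TEAD2 entry, not shown, held 13. Both lie near the median of 11 over all entries. Among the other members, the entry with most CG held 37 in TEAD3, 36 in YAP1 and 31 in LATS1 and in NF2. It held 25 in LATS2, 18 in VGLL4 and 13 in WWTR1. Whether CG content has a part in the level of TEAD2 was not tested. The WWTR1 start shown is the one of its pair of entries with more CG, the 250 bases of the other holding 1, and counts per gene do not tell which start was used. The TEAD motif CATTCC, searched on both strands as CATTCC or GGAATG, was in 1 of the 16 member entries and in 11.9% of all promoter entries. The entry was that of YAP1, where the motif, in capitals below, begins 162 bases before the start on the plus strand (chr11:102110273-102110302). TGANTCA, the AP-1 motif, was in 1 of the 16, an entry of LATS1, and in 6.57% of all entries.
YAP1: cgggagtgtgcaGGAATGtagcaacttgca

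The pathway around the members was described from 59 further genes, of which 57 were tested and 47 averaged at least 1 TPM. With DOX 3 were higher (5.26% of those tested, close to the 4.87% of all genes) and none was lower. The median log2 change was 0.055, with 34 genes above 0 and 23 below. WWC2, a relative of the NF2 partner KIBRA, was higher by 0.70 on the log2 scale (SE 0.12, edgeR adjusted p = 0.010), from 7.52 to 8.17 CPM without DOX to 11.4 to 15.1 CPM with DOX. TNIK, a MAP4K-family kinase, was higher by 0.46 (SE 0.10, edgeR adjusted p = 0.028), from 66.0 to 80.6 CPM to 90.6 to 111 CPM. AMOTL1, an angiomotin that binds YAP1, was higher by 0.31 (SE 0.072, edgeR adjusted p = 0.031), from 119.9 to 131 CPM to 151 to 165 CPM. These 3 were among 14 of the 57 that lay wholly above in the DOX-positive libraries, against 14.8% of all genes tested. Wholly below lay 1 of the 57, against 13.3% of all genes. Leaving out DOX-negative replicate 2 or 3 gave 0 called, where 0.737% and 0.337% of all genes were called. In these fits 4 and 5 of the 57 had an unadjusted edgeR p under 0.05. Among all genes tested it was 2640 of 17243 and 2414 of 17207. Leaving out DOX-positive replicate 3 gave 1 (2.17% of all genes), and leaving out DOX-positive replicate 2 gave 6 (4.8% of all genes).

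No gene of the core kinase module was called, where 4.87% of all genes tested passed. Sets as small as those described here can hold no call at that share. Its 7 genes, the MST kinases STK3 and STK4, the adaptor SAV1, the LATS activators MOB1A and MOB1B, and the LATS-related kinases STK38 and STK38L, averaged 1.29 to 16.2 TPM and had a median log2 change of 0.036. The 9 polarity genes averaged 2.45 to 19.1 TPM, with TJP1, a tight junction scaffold, at a log2 change of 0.36 and an adjusted p of 0.080 by edgeR. None of the 8 genes of STRIPAK, the phosphatase complex that opposes the MST kinases, and none of the 5 genes of protein degradation in the pathway (BTRC, FBXW11, CSNK1D and CSNK1E, which act on YAP1, and ITCH, a ligase that acts on LATS1) passed the test. CSNK1E and MOB4, listed at 0.0834 and 0.0487 TPM on average, share sequence with read-through genes, and their levels are uncertain.

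**Figure D5:**
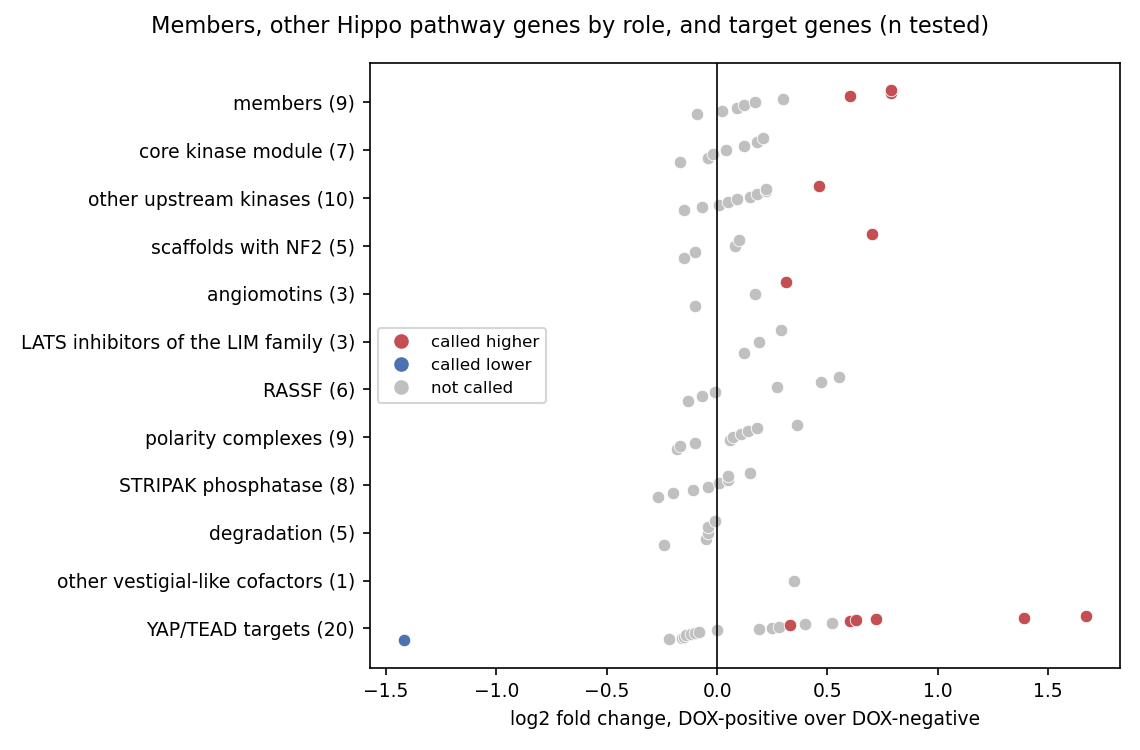
Log2 fold change, DOX-positive over DOX-negative, of the members, of the other Hippo pathway genes by role, and of YAP/TEAD target genes, with the number tested in parentheses; each point is a gene, red where called higher, blue where called lower and grey where not called. The called genes outside the members and the targets are TNIK, WWC2 and AMOTL1, and FJX1, at -1.42, is the one gene called lower; LATS2, AJUBA, AMOTL2 and PTPN14 are drawn in more than one row.

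Of 23 commonly used YAP/TEAD target genes, 20 were tested, 6 were higher with DOX and 1 was lower. This was 35% of the list against 4.87% of all genes, and the list's median log2 change was 0.22. The list was chosen with earlier results of these data known, so its share is not independent of them. ANKRD1, an ankyrin repeat protein of muscle, was higher by 1.67 on the log2 scale (SE 0.27, edgeR adjusted p = 0.0091), with 0.845, 0.550 and 0.315 CPM without DOX and 1.80, 1.56 and 2.22 CPM with DOX. CCDC80, a secreted matrix protein, was higher by 1.39 (SE 0.24, edgeR adjusted p = 0.011), and F3, which encodes tissue factor, by 0.72 (SE 0.15, edgeR adjusted p = 0.020). CCN1, a secreted matricellular protein listed as CYR61, was at 8.59, 7.47 and 7.37 CPM without DOX and at 10.8, 12.3 and 13.1 CPM with DOX. Its log2 change was 0.63 (SE 0.11, edgeR adjusted p = 0.011). The other higher genes were LATS2, itself a member, and GADD45A, a stress-induced growth arrest gene, at 0.33 (SE 0.078, edgeR adjusted p = 0.036). FJX1, a secreted or Golgi protein of the four-jointed family, went the other way, from 3.11, 3.80 and 3.74 CPM to 1.42, 1.55 and 1.03 CPM (log2 change -1.42, SE 0.17, edgeR adjusted p = 0.0024). CCN2, listed as CTGF, had a log2 change of 0.52 and MYOF one of 0.40, and neither was called (edgeR adjusted p = 0.078 and 0.060). GADD45A, CCN2 and MYOF were named after their values were seen. Without DOX-negative replicate 2 or 3, the number of targets called was 2 in each case, 1 higher and 1 lower. In these fits 0.737% and 0.337% of all genes were called. An unadjusted edgeR p under 0.05 was found for 9 and 11 of the 20, beside 2640 of 17243 and 2414 of 17207 of all genes. AXL, IGFBP3 and FOXF2 were not tested, at no more than 5 counts in any library.

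Several markers of other cell types moved in the same libraries. Of 7 fibroblast markers none was at 1 TPM in every library, and their summed level was 2.41 to 3.48 TPM without DOX and 2.46 to 3.65 TPM with DOX. COL1A1 and LUM were higher with DOX by 0.60 and 1.06 on the log2 scale (edgeR adjusted p = 0.019 and 0.030), COL1A2 had a log2 change of -0.71 and was not called (edgeR adjusted p = 0.20), COL3A1 had no count, and DCN and PDGFRB had 2 counts or fewer in each library. Of the endothelial markers, VWF was higher by 0.97 (edgeR adjusted p = 0.018) at 0.193 TPM or less, and PECAM1 had 6 counts or fewer. The neuroendocrine markers INSM1 and NCAM1 were lower with DOX by log2 changes of -0.45 and -0.50 (edgeR adjusted p = 0.039 and 0.014), with the other 4 not called. The part of these markers in the members' changes was not tested. In bulk RNA, more cells that express a gene and more transcript per cell cannot be told apart.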

How the data were processed

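RNA-Seq was analysed for 6 libraries of H660 cells. Per the labels, reads were aligned with STAR to GRCh38 (hg38), and the authors deposited gene counts, not normalized, and TPM; versions, annotation and strand setting are not given in the sources used here. TPM, deposited by the authors per gene length and library total, lists 25673 of the 28008 genes counted. Counts were filtered with filterByExpr, scaled by TMM (factors 0.9668 to 1.027) and tested with edgeR 4.0.16 (robust quasi-likelihood, R 4.3.3, Benjamini-Hochberg over 17026 genes, called under 0.05). The code was tested on simulated data. DESeq2 1.42.0, limma 3.58.1 (voom, and trend on log2 TPM), other scaling, filters, a replicate block and leaving out each library were alternatives. Ratios used TPM and an exact permutation test.

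All members were named, with MUC1, the 3 scale genes, up to 6 called genes per list by size of change, and the 3 nearest patterns of WWTR1 (the smallest adjusted p) and YAP1. The members and lists were chosen with earlier results of these data known. Some marker genes are not reported here. The labels give no batch. The growth medium given in the labels and that in the methods differ. Symbols, positions and promoters came from RefSeq (GRCh38.p14).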

Additional observations from a re-analysis of the deposited data

How the results depend on the processing

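Of 169 recomputed log2 changes of members, 151 changed neither sign nor call, 17 lost a call and 1 turned, that of TEAD1, which ran from -0.031 without DOX-positive replicate 3 to 0.091 without DOX-positive replicate 2. All 17 losses fell on the 3 called members, since the others had no call to lose. WWTR1 lost its call in 4 of 19 alternatives, TEAD4 in 5 of 19 and LATS2 in 8 of 17. The members called were 0 with limma-trend on the deposited TPM, whether as log2(TPM + 1) or log2(TPM + 0.1) with a mean of at least 1 TPM or as log2(TPM + 1) unfiltered, and so were the other Hippo genes (0) and targets (0). These fits called 30, 35 and 0 of all genes. At an unadjusted limma-trend p under 0.05, 2 of 8, 2 of 8 and 3 of 10 members passed. Of other Hippo genes, 0 of 47, 0 of 47 and 2 of 58 passed. Of targets, 1 of 8, 1 of 8 and 6 of 23 passed. Among all genes it was 332 of 11707, 329 of 11707 and 1248 of 21241. TPM rescaled over protein-coding genes, an alternative added after seeing the data, called 2 members and 1 other Hippo gene (3.05% of all genes), and the count table limited to protein-coding genes, added likewise, called 3 members (5.4% of all genes). DESeq2 called 3 members (8.43% of all genes) and limma-voom 2 (3.97%), LATS2 having an adjusted p of 0.053. Leaving out each library gave 0 to 3 members, 0 to 6 other Hippo genes and 2 to 8 targets, in fits that called 0.337% to 6.02% of all genes. Without DOX-negative replicate 3, 58 genes in all were called. In that fit 3 of the 9 members had an unadjusted edgeR p under 0.05, beside 2414 of 17207 of all genes. Without DOX-negative replicate 2, 127 genes in all and 1 member were called. The cause was not tested. Members at 5 TPM or more in every library were 2.

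Same-numbered libraries did not deviate together (correlations of -0.34, 0.011 and -0.12 over genes). This gave no sign of pairing by number, but with 3 libraries a group it cannot exclude it. With the replicate block, 3 members, 3 other Hippo genes and 8 targets were called, of 998 genes in all against 829 without it, and the log2 differences of the LATS2 to LATS1, coactivator to TEAD and WWTR1 to YAP1 ratios had an exact paired permutation p of 0.25, the smallest that 3 pairs allow. Depth limited TEAD2, at 0 to 2 counts a library.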

Other observations

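The patterns nearest to the other called members, added after their values were seen, were taken from genes within 2-fold of each member's mean CPM. Nearest to TEAD4 were F3 (0.0718), a YAP/TEAD target on the list used here, TIMP3 (0.0823), an inhibitor of metalloproteinases, and ANGPTL4 (0.0915), a secreted inhibitor of lipoprotein lipase, among 2589 genes with a median distance of 0.455. Nearest to LATS2 were PDE4A (0.0480), CD8A (0.0569) and C10ORF95 (0.0584), among 2416 genes with a median distance of 0.362. Here too the distance mostly sorts genes by the size of their change, and a link between these genes was not tested.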
